A study of Mus musculus with 9 samples.

Results

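Charcot-Marie-Tooth disease is a group of inherited neuropathies, and in its demyelinating forms the Schwann cell's myelin is the primary site of damage. Described here are 9 genes whose human counterparts are mutated in recessive or dominant demyelinating or slow-conducting neuropathies, Ndrg1, Sh3tc2, Fgd4, Mtmr2, Sbf2, Fig4, Litaf, Gdap1 and Arhgef10, together with Gm17035, an RNA annotated on the opposite strand of Ndrg1. The members are defined by name, with no threshold on a value, and make up 10 of the 25965 entries of a table of read counts. The libraries were made from sciatic nerve of C57BL/6 mice of 3 genotypes: control, PINCH1 mutant and PINCH2 mutant, the controls being littermates. PINCH1 and PINCH2, encoded by Lims1 and Lims2, are adaptor proteins that join integrin-linked kinase at integrin adhesions. Each genotype had 3 libraries, and for each library 4 nerves, taken from 1 male and 1 female and freed of the epineurium, were pooled. The labels put the animals at postnatal day 15, whereas the treatment protocol gives day 14. The labels name neither the alleles of Lims1 and Lims2 nor the cells in which they were altered.

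Several of these genes act on the membranes of endosomes. MTMR2 is a phosphatase of endosomal phosphoinositides, SBF2 is its catalytically inactive partner, and FIG4 is another phosphoinositide phosphatase, held in a complex with the kinase PIKfyve. SH3TC2 binds a Rab GTPase of the recycling endosome, and LITAF is a small membrane protein of late endosomes and lysosomes. FGD4, also called frabin, activates the GTPase CDC42, and ARHGEF10 is another exchange factor for small GTPases. GDAP1 sits in the outer mitochondrial membrane and bears on mitochondrial division. NDRG1 is an abundant cytoplasmic protein of myelinating Schwann cells that has been linked to vesicle traffic.

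The libraries held 957828 to 1204964 counts, with 9674 to 11240 entries above 0, so that 3 counts, taken here as the smallest amount read as present, corresponded to 2.49 to 3.13 CPM, the unit in which each library's counts are scaled to 1 common total. Such a floor covers counting error only. Lims1 had 0 to 9 counts and Lims2 1 to 9 counts in a library, too few to check the genotype labels. All 9 Schwann cell markers used were above 0 in every library. Their summed level was 8150 to 9132 CPM in controls, 6212 to 7340 CPM in PINCH1 mutants and 6326 to 7233 CPM in PINCH2 mutants, so the controls lay above both mutant groups. Pmp22 alone averaged 4638 CPM in controls, so the sum leans on 1 gene. In bulk nerve, fewer cells of a type and less RNA per cell cannot be told apart. Of the markers of other cells, those of fibroblasts (673 to 1345, 848 to 912 and 562 to 919 CPM in the 3 genotypes in that order) and macrophages (579 to 759, 565 to 697 and 515 to 713 CPM) overlapped between genotypes. The 5 neuronal markers summed to 89.5 to 168 CPM in controls, 57.9 to 129 CPM in PINCH1 mutants and 118 to 187 CPM in PINCH2 mutants, with Snap25 at 0 throughout. The 6 skeletal muscle markers summed to 6.35 to 33.2 CPM over the 9 libraries, with Acta1 at 0. Adipoq, Plin1 and Cfd of the 5 fat cell markers, Cd3e and Cd3g of the 4 lymphocyte markers, and Aif1 of the 5 macrophage markers in the table were also at 0 in every library. Nothing in the sources says whether reads were assigned by strand, and 88.4% of all counts lay on the 24.7% of entries whose exons overlap those of a gene on the other strand. Which strand's RNA the counts of such a gene and of its opposite-strand partner came from was not tested. For the same reason, a low count of an entry without a partner does not bound its RNA.

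At the Ndrg1 locus, the opposite-strand entry took nearly all the counts. In the GRCm38 build, Ndrg1 runs from 66929321 to 66969640 on the minus strand of chromosome 15 and has 6596 exonic bases. Gm17035, annotated as an antisense RNA, runs from 66929607 to 66931107 on the plus strand. Its 2 exons sum to 419 bases, and 100% of them lie over the last exon of Ndrg1, which holds the end of the coding sequence and the 3′ untranslated region. Of those 419 bases, 238 lie over coding sequence. This coding stretch, at chr15:66930870-66931107, is shown because a read from it matches both entries when strand is not used. It is written 5′ to 3′ on the minus strand, the sense strand of Ndrg1, from the GENCODE M21 transcript, and capitals mark 3 head-to-tail copies of a 30-base unit, of which the later ones are at least 83.3% identical to the first.
Ndrg1 under Gm17035: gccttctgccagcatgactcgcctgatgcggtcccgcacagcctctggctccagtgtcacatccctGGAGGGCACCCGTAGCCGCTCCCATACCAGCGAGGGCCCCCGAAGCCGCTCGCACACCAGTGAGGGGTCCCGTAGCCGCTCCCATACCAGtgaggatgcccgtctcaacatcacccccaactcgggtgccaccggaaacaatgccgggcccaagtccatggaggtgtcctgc

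The exons of Gm17035 cover 6.35% of the exonic bases of Ndrg1. A further opposite-strand entry, Gm2895, annotated as a bidirectional promoter RNA, shares 137 exonic bases with Ndrg1 at its other end.

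**Figure D1:**
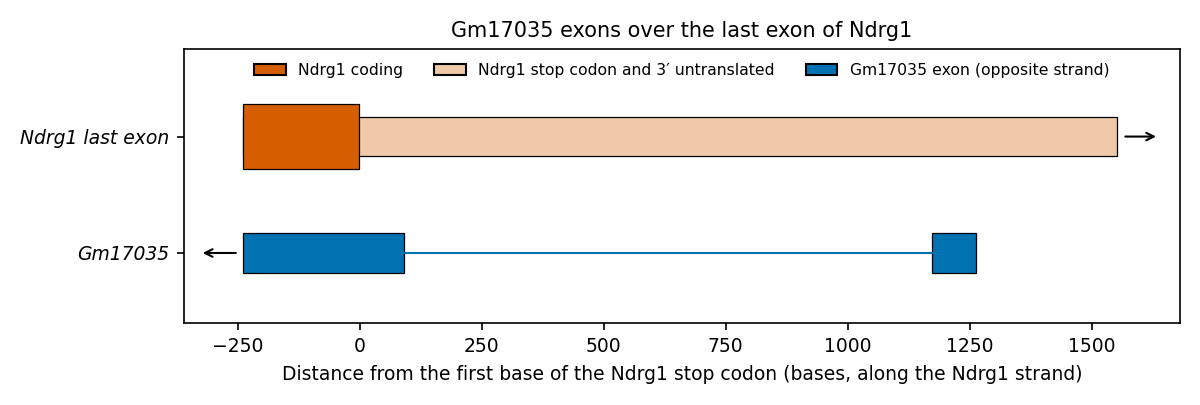
The last exon of Ndrg1 and the 2 exons of Gm17035 drawn to scale against distance in bases from the Ndrg1 stop codon, with arrows for the direction of transcription. Both exons of Gm17035 lie within the last exon of Ndrg1, and the longer one covers 238 of the 239 coding bases of that exon.

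Gm17035 was among the most abundant entries of the nerve. Its counts were 32542, 25715 and 30811 in controls, 25966, 27335 and 30964 in PINCH1 mutants and 32022, 31634 and 29211 in PINCH2 mutants. It held 2.46% to 3.29% of every library and ranked 3 or 4 of 25965 entries. The 3 genotypes overlapped. Ndrg1 itself had 268, 359 and 457 counts in controls, 234, 215 and 267 in PINCH1 mutants and 254, 296 and 285 in PINCH2 mutants, which placed it at rank 392 to 682. Summed over the 9 libraries, Gm17035 had 266200 counts and Ndrg1 had 2635. Although all exonic bases of Gm17035 lie over Ndrg1 exons, the 2 entries thus did not hold the same reads. Reads at this locus were therefore not counted for both entries regardless of strand. Which strand was counted is not stated. Gm17035 was first by summed counts of the 815 antisense-type entries that overlap a partner. An excess of this direction was common: of 491 such pairs with at least 90 counts summed over the 9 libraries, the antisense entry exceeded its partner in 385, or 78.4%.

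The level of the Ndrg1 entry was 342 ± 66.3 CPM in controls, 227 ± 15.6 CPM in PINCH1 mutants and 268 ± 19.4 CPM in PINCH2 mutants (mean ± SD, n = 3), on a scale adjusted for library composition. With 2635 counts in all beside 266200 for Gm17035, how far this entry stands for Ndrg1 RNA was not tested. By library its levels were 277, 338 and 409 CPM in controls, 213, 244 and 223 CPM in PINCH1 mutants and 269, 248 and 286 CPM in PINCH2 mutants. Every PINCH1 mutant library lay below every control and every PINCH2 mutant library, while the PINCH2 mutants overlapped the lowest control. The controls spread more widely than either mutant group.

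Against controls, the log2 fold change of the Ndrg1 entry in PINCH1 mutants was -0.59 (SE 0.18, 95% interval -0.96 to -0.23), a ratio of 0.663. It did not pass the test across all 4738 entries with enough counts (edgeR quasi-likelihood test, unadjusted p = 0.00287, Benjamini-Hochberg adjusted p = 0.406). An unadjusted p below 0.05 was found for 6.37% of entries in this comparison (4.09% with the mutant lower), and groups that did not overlap for 13.7% (7.49% with the mutant lower), beside 9.05% in PINCH2 mutants against controls. The log2 fold change in PINCH2 mutants was -0.35 (SE 0.18, 95% interval -0.72 to 0.01, edgeR adjusted p = 0.999), a ratio of 0.783. Between the mutants it was -0.24 for PINCH1 minus PINCH2 (SE 0.18, 95% interval -0.61 to 0.13, edgeR adjusted p = 0.938). Groups did not overlap for 11% of entries in that comparison (5.57% with the PINCH1 mutants lower). A test for any difference among the 3 genotypes gave Ndrg1 an adjusted p of 0.610 in edgeR.

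Gm17035 differed less. Its level was 28492 ± 4764 CPM in controls, 26849 ± 3770 CPM in PINCH1 mutants and 29909 ± 3748 CPM in PINCH2 mutants (mean ± SD, n = 3). The log2 fold change was -0.09 in PINCH1 mutants (95% interval -0.38 to 0.21) and 0.07 in PINCH2 mutants (95% interval -0.23 to 0.37), with edgeR adjusted p-values of 0.967 and 0.999. Gm2895 was at 0.19 in both comparisons (SE 0.33 in PINCH1 mutants).

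The ratio of Gm17035 to Ndrg1 counts was 121, 71.6 and 67.4 in controls, 111, 127 and 116 in PINCH1 mutants and 126, 107 and 102 in PINCH2 mutants. Both low ratios belonged to controls 2 and 3, and control 1 lay among the mutants. The log2 ratio was higher than in controls by 0.49 in PINCH1 mutants and by 0.41 in PINCH2 mutants, with a two-sided exact permutation p of 0.3 in each, where 3 against 3 libraries cannot go below 0.1. Adjusted over 6 such tests, p was 0.6 in both. Without control 1, these differences were 0.76 and 0.68, and without control 3 the one in PINCH2 mutants was 0.26.

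**Figure D2:**
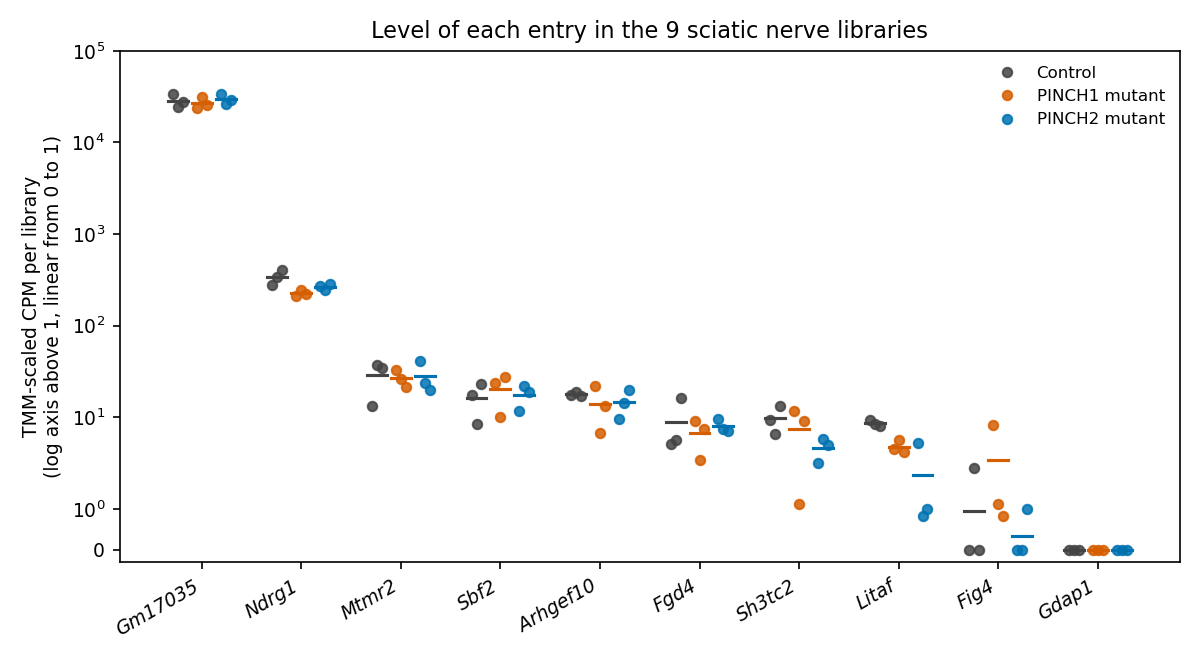
Level of each of the 10 entries in every library, in CPM adjusted for library composition, on a log axis that is linear below 1 CPM, with points for libraries and bars for the genotype mean. For Ndrg1 the PINCH1 mutants (213 to 244 CPM) lie below all controls (277 to 409 CPM), and for Gm17035 the 3 genotypes overlap.

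Because the summed Schwann cell markers were also lower in both mutants, the Ndrg1 entry was set against them. Pmp22 alone averaged 4638 CPM in controls, beside 8150 to 9132 CPM for the sum, so this scale leans on 1 myelin gene. Per 1000 CPM of the 9 summed markers, Ndrg1 was at 33.99 to 44.8 CPM in controls, 29.1 to 39.3 CPM in PINCH1 mutants and 34.2 to 42.5 CPM in PINCH2 mutants. The genotypes overlapped on this scale. The log2 difference from controls was -0.18 in PINCH1 mutants and 0.01 in PINCH2 mutants (two-sided exact permutation p = 0.5 and 0.9, or 0.75 and 0.9 after adjustment over 3 tests). The part of Schwann cell RNA content in the difference of Ndrg1 was not tested.

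Entries with profiles most like that of Ndrg1 over the 9 libraries were, among those reported here, Vim, Tprgl and Mal. Vim encodes the intermediate filament protein vimentin, and Mal a membrane proteolipid of myelin. Likeness was the mean absolute difference between log2 CPM values, each centred on its entry's own mean, and came to 0.116 for Vim, 0.117 for Tprgl and 0.123 for Mal, against a median of 0.402 over 4732 entries. Vim had 153, 242 and 249 counts in controls, 142, 114 and 135 in PINCH1 mutants and 120, 148 and 150 in PINCH2 mutants. None of the 3 overlaps a gene on the other strand. Those most like Gm17035 were Cog1 (0.0445), Wdr61 (0.0663) and 1810035L17Rik (0.0667), against a median of 0.380. Each of these overlaps an opposite-strand gene: Fam104a for Cog1, Dnaja4 for Wdr61, and Snw1 and Alkbh1 for 1810035L17Rik. All entries share the libraries and their scaling, and no test was made of the likeness.

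**Figure D3:**
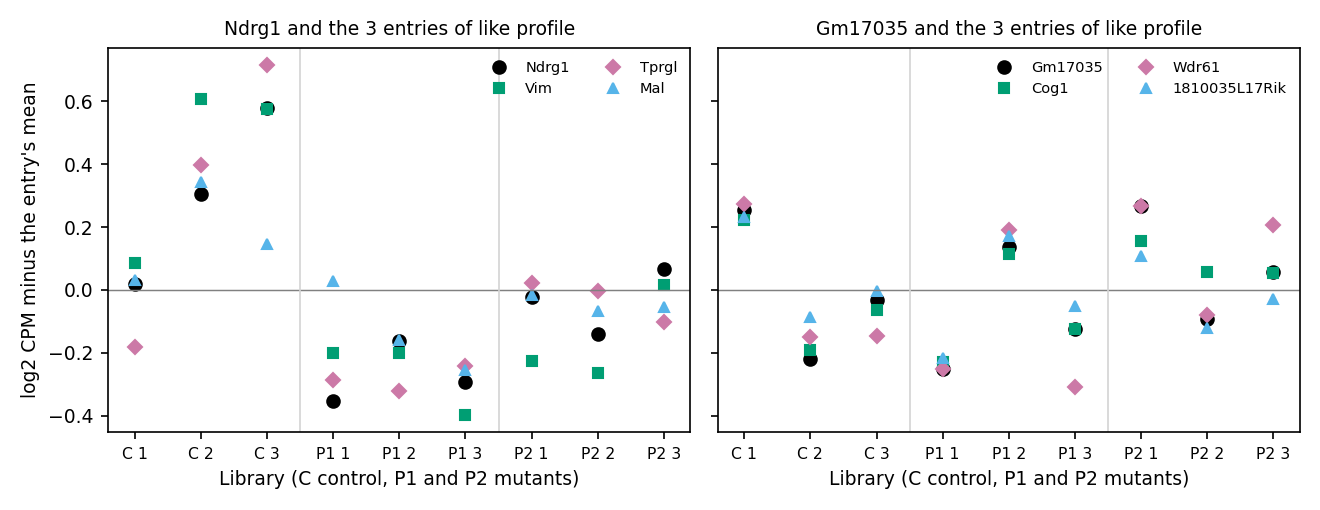
Centred log2 CPM of Ndrg1 (left) and Gm17035 (right) in the 9 libraries, each with 3 entries of like profile. Ndrg1, Vim, Tprgl and Mal are all higher in controls 2 and 3 than in the PINCH1 mutants, and Gm17035, Cog1, Wdr61 and 1810035L17Rik vary over a narrower range.

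Among the phosphoinositide enzymes, Mtmr2 and Sbf2 were low but measurable. Mtmr2 lies on the plus strand of chromosome 9 (13748410 to 13806481) and Sbf2 on the minus strand of chromosome 7 (110308013 to 110614922). Neither shares exonic bases with an opposite-strand gene, although 3 processed pseudogenes lie within the span of Sbf2. Mtmr2 had 13, 40 and 39 counts in controls, 36, 23 and 26 in PINCH1 mutants and 39, 28 and 20 in PINCH2 mutants. The first control was the lowest of all 9 libraries, and the groups overlapped. Its level was 28.7 ± 13.3, 26.9 ± 5.61 and 28.3 ± 11.4 CPM in controls, PINCH1 mutants and PINCH2 mutants (mean ± SD, n = 3).

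The log2 fold change of Mtmr2 was -0.10 in PINCH1 mutants (SE 0.39, 95% interval -0.92 to 0.72) and -0.04 in PINCH2 mutants (SE 0.39), with edgeR adjusted p-values of 0.985 and 0.999. The median over tested entries that, like Mtmr2, lack an opposite-strand partner was -0.17 in PINCH1 and -0.12 in PINCH2 mutants, and over those with a partner 0.05 and 0.04. When the 2 classes were scaled separately, Mtmr2 was at 0.08 and 0.12. Cep57, a centrosomal protein gene that lies 1311 bp beyond the end of Mtmr2 on the other strand, had 257 to 426 counts and log2 fold changes of -0.11 and -0.03.

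Sbf2 had 17, 9 and 26 counts in controls, 26, 9 and 33 in PINCH1 mutants and 11, 26 and 19 in PINCH2 mutants. The second library was the lowest of the controls and of the PINCH1 mutants, and the groups overlapped. The log2 fold change was 0.33 in PINCH1 mutants (SE 0.45, 95% interval -0.60 to 1.27) and 0.10 in PINCH2 mutants (SE 0.46), with edgeR adjusted p-values of 0.940 and 0.999. With each library left out in turn, it ran from 0.023 (without control 2) to 0.68 (without control 3) in PINCH1 mutants and from -0.22 to 0.44, for the same libraries, in PINCH2 mutants.

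Fig4, on the minus strand of chromosome 10 (41188172 to 41303241), was at or near the floor. It had 0, 3 and 0 counts in controls, 9, 1 and 1 in PINCH1 mutants and 0, 0 and 1 in PINCH2 mutants. A single PINCH1 mutant library held 9 of these counts, and no fold change is given. Ak9, the opposite-strand gene 739 bp away in GENCODE M21, was at 0 in all 9 libraries. The deposited table names it Akd1 and starts it farther from Fig4, at 41316247.

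Of the endosomal membrane genes, Sh3tc2 had 9, 7 and 15 counts in controls, 13, 1 and 11 in PINCH1 mutants and 3, 7 and 5 in PINCH2 mutants. It lies on the plus strand of chromosome 18 (61953075 to 62015715) with no opposite-strand gene within 5000 bp. Its mean was 9.78, 7.39 and 4.69 CPM in the order control, PINCH1 mutant, PINCH2 mutant. It missed the filter on low counts. Without the filter, 15595 entries were tested, and Sh3tc2 was at -0.36 in PINCH1 mutants (SE 0.76) and -1.02 in PINCH2 mutants (SE 0.79, edgeR adjusted p = 0.852).

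Litaf, on the minus strand of chromosome 16 (10959275 to 11066157), had 9 counts in every control, 5 in every PINCH1 mutant and 5, 1 and 1 in the PINCH2 mutants. That is 8.62 ± 0.631, 4.80 ± 0.779 and 2.38 ± 2.53 CPM (mean ± SD, n = 3), and the controls lay above both mutant groups. The SDs of controls and PINCH1 mutants come from library scaling alone, because the counts within each of these groups were equal. Of the 15595 entries with any count, the mutant group lay wholly below the controls for 5.32% in PINCH1 mutants and 4.01% in PINCH2 mutants. Litaf missed the filter too. Without it, the log2 fold change was -0.83 in PINCH1 mutants (SE 0.93, edgeR adjusted p = 0.841) and -1.84 in PINCH2 mutants (SE 1.01, unadjusted p = 0.0682, edgeR adjusted p = 0.852). All 9 values of Litaf were odd numbers, as were all 9 of Sh3tc2. Odd numbers made up 74.5% of the table's values between 1 and 50 and 50.1% of its higher values, and how the low counts arose is not stated.

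Snn, the neighbour that shares 95 exonic bases with Litaf on the other strand in GENCODE M21 but lies beyond Litaf in the deposited table, had 30, 31 and 43 counts in controls, 23, 16 and 34 in PINCH1 mutants and 18, 27 and 31 in PINCH2 mutants. Its log2 fold change was -0.54 in PINCH1 mutants (SE 0.34, edgeR adjusted p = 0.826) and -0.44 in PINCH2 mutants (SE 0.34). Summed with Snn, Litaf was at -0.60 (SE 0.31, unadjusted p = 0.0700) and -0.64 (SE 0.31, unadjusted p = 0.0536).

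Fgd4, on the minus strand of chromosome 16 (16416917 to 16600549), had 5, 6 and 18 counts in controls, 10, 3 and 9 in PINCH1 mutants and 9, 9 and 7 in PINCH2 mutants. The third control held the most and the second PINCH1 mutant the fewest. Fgd4 missed the filter as well, and without it the log2 fold change was -0.39 in PINCH1 mutants (SE 0.74) and -0.15 in PINCH2 mutants (SE 0.73).

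Arhgef10, on the plus strand of chromosome 8 (14911663 to 15001085), was the other member crossed by an annotated antisense RNA. Gm16350 has 446 exonic bases, of which 96 lie over Arhgef10, all in coding sequence. The longest stretch of that overlap, at chr8:14961115-14961201, is shown on the plus strand, again as the sequence that both entries share.
Arhgef10 under Gm16350: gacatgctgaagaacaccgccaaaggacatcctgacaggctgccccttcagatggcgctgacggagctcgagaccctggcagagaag

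Gm16350 had more counts than Arhgef10 in every library. Arhgef10 had 17, 20 and 19 counts in controls, 24, 6 and 16 in PINCH1 mutants and 9, 17 and 20 in PINCH2 mutants. Gm16350 had 157, 127 and 264, then 219, 116 and 269, then 332, 237 and 177. The controls of Arhgef10 were close together at 17.8 ± 0.937 CPM, and both mutant groups spread around them, at 14.02 ± 7.56 CPM in PINCH1 and 14.6 ± 5.30 CPM in PINCH2 mutants (mean ± SD, n = 3). At 17, 20 and 19 counts, counting error alone exceeds the SD of the controls, so their closeness does not describe the groups.

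The log2 fold change of Arhgef10 was -0.32 in PINCH1 mutants (SE 0.46, 95% interval -1.28 to 0.63) and -0.28 in PINCH2 mutants (SE 0.46), with edgeR adjusted p-values of 0.943 and 0.999. In PINCH1 mutants it was -0.78 without PINCH1 mutant 1 and -0.017 without PINCH1 mutant 2, and in PINCH2 mutants -0.059 without PINCH2 mutant 1 and -0.56 without PINCH2 mutant 3. That of Gm16350 was 0.10 (SE 0.29) and 0.49 (SE 0.29). The ratio of Gm16350 to Arhgef10 ran from 6.35 to 13.9 in controls, 9.13 to 19.3 in PINCH1 mutants and 8.85 to 36.9 in PINCH2 mutants, which overlap (two-sided exact permutation p = 0.3 and 0.4 against controls, both 0.6 after adjustment over 6 tests). With Gm16350 added to it, Arhgef10 was at 0.07 and 0.43.

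Gdap1, on the plus strand of chromosome 1 (17145362 to 17164271), had 0 counts in all 9 libraries. In raw totals, the floor of 3 counts was 2.49 to 3.13 CPM in a library, and it covers counting error only. Gdap1 has no opposite-strand gene within 5000 bp, and the strand counted is not stated, so 0 counts do not bound its RNA.

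Per kb of exon in controls, the order of levels was Gm17035 (68001 CPM per kb), Ndrg1 (51.8), Mtmr2 (5.84), Arhgef10 (1.93), Sh3tc2 (1.69), Litaf (1.67), Sbf2 (1.11), Fgd4 (0.513), Fig4 (0.287) and Gdap1 (0). Gm17035, Ndrg1 and Mtmr2 stood apart from each other and from the rest by more than their spread. Arhgef10, Litaf and Sbf2 lay within 1 SD of Sh3tc2 (0.595 CPM per kb), and the libraries of Sbf2, Fgd4 and Fig4 overlapped. The value for Gm17035 takes its reads over only 419 bases, and whether they came from Gm17035 or Ndrg1 RNA was not tested.

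In all, 5 of the 10 entries had enough counts for the test (Ndrg1, Gm17035, Mtmr2, Sbf2 and Arhgef10), and none passed it at an adjusted p of 0.05 in any of the 3 comparisons or in the test across genotypes. DESeq2 and limma-voom called 0 of them as well, although DESeq2 gave Sbf2 and Arhgef10 no adjusted p between the mutants. In edgeR, 1 of the 5, Ndrg1, had an unadjusted p below 0.05 in PINCH1 mutants against controls, and none did in the other comparisons. Few of the 4738 entries tested passed: 0.0633% in PINCH1 mutants against controls, 0.0211% in PINCH2 mutants against controls, 0.0844% between the mutants and 0.0844% across genotypes. The share with an unadjusted p below 0.05 was 4.26% in PINCH2 mutants against controls and 6.35% between the mutants, and 5.51% in the test across genotypes. The median log2 fold change of the 5 was -0.10 in PINCH1 and -0.04 in PINCH2 mutants, beside -0.02 and 0.00 over all entries tested. Below 0 were 4 of the 5 in PINCH1 mutants and 3 in PINCH2 mutants against controls and 4 between the mutants, beside 52.2%, 49.3% and 52.6% of all entries. The comparisons with controls share the 3 control libraries.

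**Figure D4:**
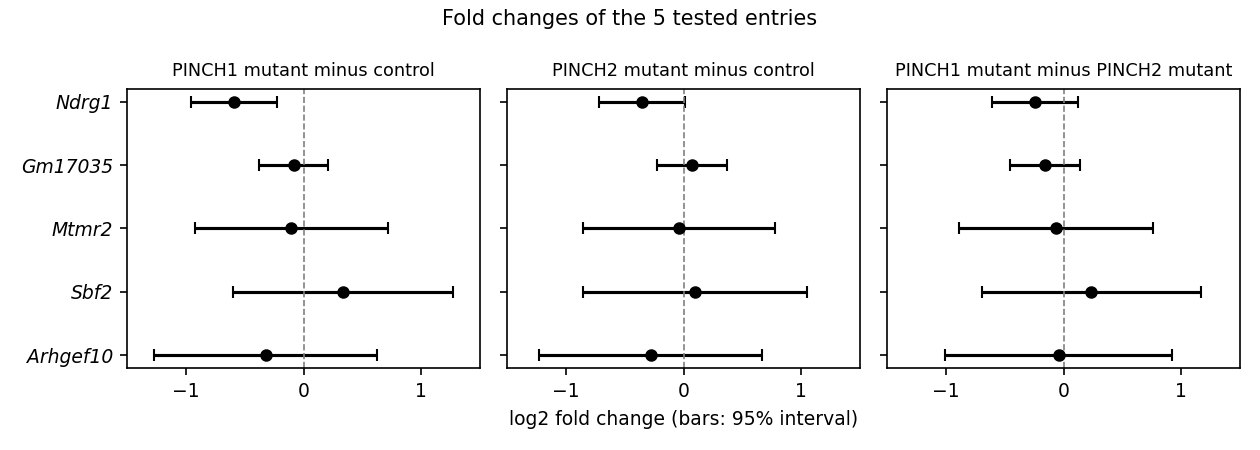
Log2 fold change of the 5 tested members in the 3 comparisons, with points for the edgeR estimate and bars for its 95% interval. The interval of Ndrg1 lies below 0 only in PINCH1 mutants against controls (-0.96 to -0.23), where its adjusted p is 0.406.

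Of 17 other genes of demyelinating neuropathy, 12 were tested, 9 of them were below 0 in each of the 3 comparisons, and none passed the test. Over all entries, 52.2% were below 0 in PINCH1 and 49.3% in PINCH2 mutants against controls, and 52.6% between the mutants. The median log2 fold change of the 12 was -0.42 in PINCH1 mutants and -0.24 in PINCH2 mutants, beside -0.02 and 0.00 over all entries. Only 5 of the 12 have an opposite-strand partner, and tested entries without one had medians of -0.17 and -0.12. With the classes of entries with and without a partner scaled separately, 9 and 8 were below 0, with medians of -0.30 and -0.24. An unadjusted edgeR p below 0.05 was found for 3 of the 12 in PINCH1 mutants and 1 in PINCH2 mutants, beside 6.37% and 4.26% of all entries. Pmp22, a compact myelin protein and the most abundant of the 12, was at -0.26 in both mutants (SE 0.13). Prx, which encodes periaxin and overlaps the opposite-strand entry Gm15541, was at -0.53 in PINCH1 mutants (SE 0.18, edgeR adjusted p = 0.529) and -0.23 in PINCH2 mutants (SE 0.18). Pmp22 and Prx are also among the Schwann cell markers given above.

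Outside these 2, the most abundant of the list, 3 genes were picked after their values were seen. Gjb1, which encodes the gap junction protein of noncompact myelin, was at 13.5 ± 5.55 CPM in controls and 2.88 ± 0.467 CPM in PINCH1 mutants (mean ± SD, n = 3), a log2 fold change of -2.20 (SE 0.63, edgeR adjusted p = 0.374). Its PINCH2 mutants stood at 16.4 ± 4.12 CPM. The PINCH1 mutant level of Gjb1 lay at the floor of 3 counts, 2.49 to 3.13 CPM in a library. The size of its fold change therefore rests on counts near that floor. Drp2, whose product binds periaxin, was at -0.62 in PINCH1 mutants (SE 0.21, edgeR adjusted p = 0.518) and -0.09 in PINCH2 mutants (SE 0.21). Cntnap1, an axonal protein of the paranode, overlaps Plekhh3 and was at 0.97 in PINCH2 mutants (SE 0.32, edgeR adjusted p = 0.999) and 0.11 in PINCH1 mutants (SE 0.33).

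**Figure D5:**
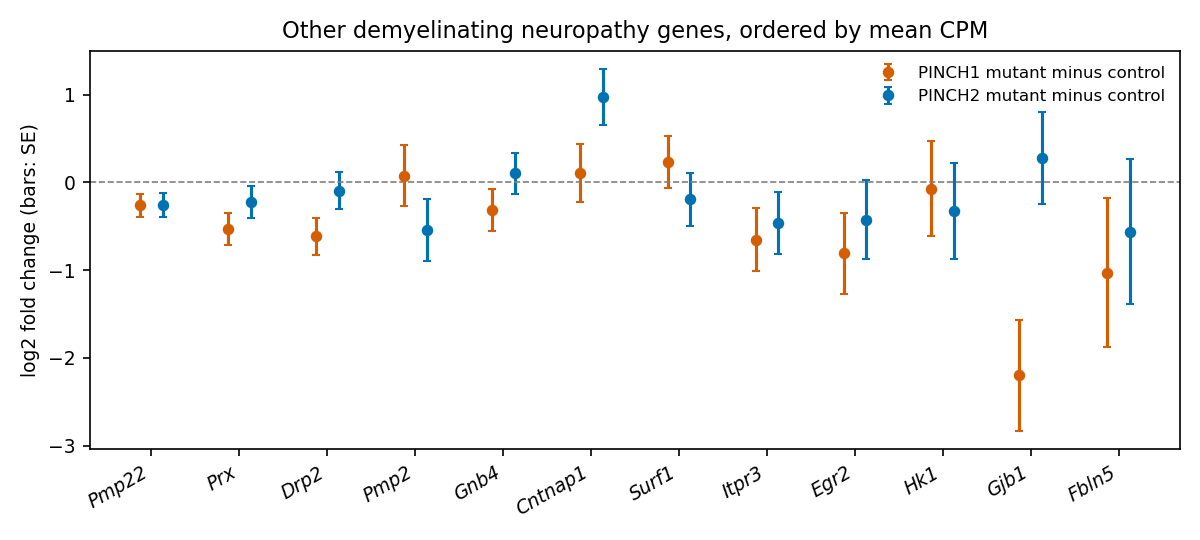
Log2 fold change of 12 other demyelinating neuropathy genes in PINCH1 and PINCH2 mutants against controls, ordered by mean CPM, with bars for the SE of the edgeR estimate. In each mutant 9 of 12 lie below 0, beside 52.2% (PINCH1) and 49.3% (PINCH2) of all tested entries, and none has an adjusted p below 0.05.

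The pathways around the members showed no gene past the threshold. For the counts below 0 that follow, the shares over all entries were 52.2% in PINCH1 mutants and 49.3% in PINCH2 mutants against controls. The medians over all entries tested were -0.02 and 0.00, and over those without an opposite-strand partner -0.17 and -0.12. Of 20 endosomal phosphoinositide kinases and phosphatases, 6 were tested, 4 of them below 0 in PINCH1 and 5 in PINCH2 mutants, with medians of -0.06 and -0.15. With the 2 classes scaled separately, 3 and 4 were below 0, with medians of -0.03 and -0.18. The most abundant was Inpp5f, a phosphoinositide phosphatase of endosomes, at -0.29 in PINCH1 mutants (SE 0.18) and -0.09 in PINCH2 mutants (SE 0.18). Mtmr11, which overlaps Gm17690, followed at 0.10 (SE 0.21) and -0.20 (SE 0.22). Of 26 genes of endosomal sorting and recycling, 9 were tested and 6 were below 0 in each mutant, with medians of -0.03 and -0.08. Under separate scaling, 6 and 7 were below 0, with medians of -0.07 and -0.10. Rab11b and Vps29 were the most abundant, both at -0.03 in PINCH1 mutants and at 0.13 and 0.03 in PINCH2 mutants, and both overlap an opposite-strand gene.

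Of 10 genes of mitochondrial dynamics, 6 were tested, with 4 below 0 in PINCH1 and 3 in PINCH2 mutants and medians of -0.58 and -0.13. These medians were -0.46 and -0.09 with the 2 classes scaled separately. The mitofusin genes Mfn1 and Mfn2, whose products fuse outer mitochondrial membranes, were at 0.49 (SE 0.33) and -0.43 (SE 0.45) in PINCH1 mutants and at -0.32 (SE 0.34) and 0.12 (SE 0.43) in PINCH2 mutants. Ndrg2, the only tested gene of 3 others in the NDRG family, was at -0.70 in PINCH1 and -0.60 in PINCH2 mutants (SE 0.53 in each). With the 2 classes scaled separately, Ndrg2 was at -0.52 and -0.49. Of 7 genes of ErbB and neuregulin signalling, 5 were tested, with 3 and 2 below 0 and medians of -0.10 and 0.06. With the 2 classes scaled separately, 2 and 1 were below 0, with medians of 0.05 and 0.03. Bace1 and Adam17, proteases that cleave neuregulin, were at 0.12 and 0.20 in PINCH1 mutants and at 0.32 and 0.06 in PINCH2 mutants. Both overlap opposite-strand genes, Bace1 among others Rnf214, and Adam17 Iah1.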

How the data were processed

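RNA was sequenced from 9 libraries of sciatic nerve, 3 per genotype. Per the submitters' processing notes, HISAT2 2.0.5, cutadapt 1.9.1 and Trim Galore 0.4.2 were used on build GRCm38. What counted the reads, whether by strand, and against which annotation release is not stated there. The authors deposited 1 table of whole-number counts per gene entry, and it was used unscaled. Nothing says that pools shared no litter, so p-values measure the spread between these pools.

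Counts were fitted in R 4.3.3 with edgeR 4.0.16 (TMM scaling, filterByExpr, robust quasi-likelihood test, genotype only, all 9 libraries), with Benjamini-Hochberg adjustment over 4738 entries and a threshold of 0.05. Levels are CPM over TMM-scaled sums of the tested entries, and log2 CPM used a prior count of 2. DESeq2 1.42.0 and limma 3.58.1 (voom), other scalings and filters, the 6 libraries of a comparison, a replicate block, each library left out and sums with partners were alternatives. Exon overlaps came from GENCODE M21 with bedtools 2.31.1, which held 96.4% of entries. Exact permutation tests used scipy 1.17.1. The fitting was tested on simulated data.

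Named were all members, their opposite-strand partners (or nearest such gene within 5000 bp), the 2 most abundant tested genes of each list, and the 3 entries most like Ndrg1 and Gm17035. The members, lists and markers were chosen with earlier results of these data known. One gene and 1 further list are not reported here and were left out of the lists, markers and profiles. The ratios to partners and to Schwann cell markers were added after values were seen.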

Additional observations from a re-analysis of the deposited data

How the results depend on the processing

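No member passed the threshold in any of 71 member counts under the alternatives, and of 276 fold changes under them 251 kept their direction. Ndrg1 in PINCH1 mutants ran from -0.72 to -0.44 over 18 alternatives (adjusted p 0.335 to 0.986), the nearest to 0 being without control 3, and it was at -0.08 when summed with its partners, where Gm17035 makes up most of the sum by construction. In PINCH2 mutants it ran from -0.49 to -0.20, and to 0.069 in that sum. With every library kept, the other reversals were Mtmr2 at 0.082 (PINCH1) and 0.12 (PINCH2) with classes scaled separately and at 0.0043 in PINCH2 with limma-voom, and Arhgef10 at 0.066 (PINCH1) and 0.43 (PINCH2) summed with Gm16350. The cause was not tested.

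With each library left out, log2 fold changes in PINCH1 mutants against controls ran from -0.20 to 0.057 for Gm17035, -0.43 to 0.14 for Mtmr2, 0.023 to 0.68 for Sbf2 and -0.78 to -0.017 for Arhgef10. In PINCH2 mutants they ran from -0.035 to 0.20 for Gm17035, -0.40 to 0.20 for Mtmr2, -0.22 to 0.44 for Sbf2 and -0.56 to -0.059 for Arhgef10. Between the mutants they ran from -0.26 to 0.30 for Mtmr2, -0.033 to 0.55 for Sbf2 and -0.50 to 0.27 for Arhgef10, and the log2 ratio of Gm16350 to Arhgef10 from -0.66 to 0.37. Against controls that ratio ran from 0.34 to 0.95 in PINCH1 and 0.25 to 1.28 in PINCH2 mutants, and the ratio of Gm17035 to Ndrg1 from 0.34 to 0.76 and 0.26 to 0.68. Leaving libraries out of the ratios was chosen after seeing the data.

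Entries called in PINCH1 mutants against controls were 3 of 4738 tested, and 7 of 3725 with DESeq2 and 1 of 4738 with limma-voom. They were 15 of 15595 without a filter and 16 of 10577 at 1 CPM or more in 3 libraries. With only the 6 libraries 1 of 4297 was called, with a replicate block 5 of 4738, and with a library left out 1 to 9. In PINCH2 mutants against controls the count was 1, and 0 with limma-voom, the 6 libraries or the replicate block, and 0 to 1 with a library left out. Between the mutants it was 4 of 4738, and 7 of 2807 with DESeq2, 20 of 15595 without a filter and 27 of 10577 at 1 CPM. With the 6 libraries it was 8 of 4139, and with a library left out 3 to 9. Same-numbered libraries had correlations of -0.11 to 0.25, with 3 of 9 over 0.1. Differently numbered ones had -0.20 to 0.14, with 1 of 18 over 0.1, and 5 of 9 libraries correlated best with their own number. The numbers were not taken to pair libraries because no label says that they mark a shared litter or day. The replicate block called no member, and Ndrg1 was at -0.58 in PINCH1 mutants under it. At 957828 to 1204964 counts per library, 5 of 10 members had too few for the test.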
